A study of Mus musculus with 8 samples.

Results

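The genes Cdh1, Epcam, Cldn7, Cldn3, Cldn4 and Tjp1 encode proteins that hold epithelial cells together, and the acetylation of histone H3 at lysine 27 (H3K27ac) around them was compared between control and Gata6 knockout colon cancer organoids of the mouse. The peaks were chosen by position: every row of the authors' peak table that overlaps 1 of 5 windows in mm9 coordinates. The windows ran from 109080000 to 109220000 on chromosome 8 for Cdh1, from 88000000 to 88090000 on chromosome 17 for Epcam, from 69760000 to 69800000 on chromosome 11 for Cldn7, from 135400000 to 135520000 on chromosome 5 for Cldn3 and Cldn4 together, and from 72400000 to 72720000 on chromosome 7 for Tjp1. They held 36 of the 22731 peaks: 12 at Cdh1, 6 at Epcam, 2 at Cldn7, 11 at Cldn3 and Cldn4, and 5 at Tjp1. Peaks are numbered below within each window, in order of position.

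The organoids carry the genotype labelled AKP, and both groups share it. The knockout group, labelled Gata6KO_AKP, lacks in addition Gata6, which encodes a GATA transcription factor active in intestinal epithelium. C57Bl6 is given as the strain of recipient mice for all samples, and neither the way Gata6 was removed nor the number of clones is given in the sources used here. Each group had 3 H3K27ac libraries, made by CUT&RUN, in which an antibody leads a nuclease to the chromatin that carries the mark. The labels do not say whether the 3 libraries of a group stem from separate cultures; if they do not, the spread behind each p-value is technical.

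E-cadherin, the product of Cdh1, is the calcium-dependent adhesion receptor of adherens junctions and binds beta-catenin inside the cell. EpCAM is a surface glycoprotein of epithelia that binds claudin-7, and claudins 3, 4 and 7 are membrane proteins of the tight junction. ZO-1, the product of Tjp1, is the scaffold beneath the tight junction that ties claudins to actin. H3K27ac marks active promoters and enhancers, and loss of E-cadherin and claudins is a known feature of the transition of epithelial cells to a mesenchymal state, in which Snail and Zeb factors bind E-boxes in such promoters.

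The promoter stretches shown are those of the genes of the 3 windows in which peaks were called changed (Epcam, Cldn3 and Cldn4, Tjp1). Each is the 250 bases before the gene's start in RefSeq (GRCm38.p6), which covered 5 of the 6 genes, all but Cdh1. Capitals mark GATA motifs (AGATAA and also AGATAG, as well as TGATAA and likewise TGATAG, on either strand) and the E-box CACCTG (on either strand, where it reads CAGGTG).
Epcam, chr17:87635729-87635978 (GRCm38.p6, + strand): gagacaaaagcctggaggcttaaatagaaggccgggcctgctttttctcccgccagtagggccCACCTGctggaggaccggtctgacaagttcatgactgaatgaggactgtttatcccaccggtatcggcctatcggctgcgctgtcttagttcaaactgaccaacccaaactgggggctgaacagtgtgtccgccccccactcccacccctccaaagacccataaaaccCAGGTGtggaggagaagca
Cldn4, chr5:134946935-134947184 (GRCm38.p6, - strand): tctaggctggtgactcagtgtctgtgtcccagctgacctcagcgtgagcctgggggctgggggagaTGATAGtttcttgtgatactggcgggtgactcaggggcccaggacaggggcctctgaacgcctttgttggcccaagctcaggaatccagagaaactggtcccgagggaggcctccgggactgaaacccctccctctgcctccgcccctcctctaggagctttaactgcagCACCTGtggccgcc
Cldn3, chr5:134985964-134986213 (GRCm38.p6, + strand): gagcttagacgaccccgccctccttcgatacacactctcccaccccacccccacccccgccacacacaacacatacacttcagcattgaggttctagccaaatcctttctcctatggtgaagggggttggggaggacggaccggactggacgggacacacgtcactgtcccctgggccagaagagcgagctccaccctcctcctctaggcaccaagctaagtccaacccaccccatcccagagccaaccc
Tjp1, chr7:65371245-65371494 (GRCm38.p6, - strand): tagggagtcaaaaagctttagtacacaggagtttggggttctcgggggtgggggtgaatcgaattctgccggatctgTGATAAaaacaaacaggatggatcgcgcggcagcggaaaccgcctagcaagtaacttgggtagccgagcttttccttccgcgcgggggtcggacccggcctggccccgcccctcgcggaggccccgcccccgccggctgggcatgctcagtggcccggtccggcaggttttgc

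Within these 250 bases Epcam held 2 E-boxes and no GATA motif, Cldn4 held 1 of each, Tjp1 held 1 GATA motif and no E-box, and Cldn3 held neither. Cldn7, in whose window no peak was called, is not shown and has 2 listed starts. The stretch before start 1 held neither motif, and that before start 2 held 2 E-boxes and no GATA motif. Of all 32851 promoter stretches of this length, 26.5% held such a GATA motif and 17.2% such an E-box. The motif AACCNGTT of grainyhead factors, which act in epithelia, was found in none of the 4 stretches shown and in 1.79% of all. The matches describe letters only. The peaks have mm9 positions and the promoters GRCm38.p6 positions, so which peak covers which promoter was not determined. A gene's name beside a peak or a sum stands for its window, and a window may hold peaks of a neighbouring gene such as Cdh3 beside Cdh1 or Elp5 beside Cldn7.

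Reads in peaks numbered 5141856 to 7026388 per library, and the 36 peaks held between 60 and 1572 reads each in a library. Levels are given as CPM, counts scaled to the same total of reads in peaks for every library with TMM factors, which balance the libraries over most peaks. Since the table names no genes, neither Gata6 itself nor markers of cell types were read as a check of the labels. The H3K4me3 and IgG libraries of the series were not analysed here, so no background was subtracted.

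All 36 peaks passed the filter on low counts and were tested, with p-values adjusted over the whole table. A level counts reads over all cells of an organoid culture, so fewer cells with the mark and less of it per cell cannot be told apart. Acetylation was higher in the knockout at 4 of them and lower at 2, and the other 30 did not pass an adjusted p of 0.05. These 6 calls are 16.7% of the members, against 21.8% of all peaks. Higher calls made up 11.6% of all peaks and lower calls 10.2%. The 4 gains lay in the windows of Epcam (2 peaks), of Cldn3 and Cldn4 (1) and of Tjp1 (1), and the 2 losses in those of Cldn3 and Cldn4 (1) and of Tjp1 (1). No peak at Cdh1 or Cldn7 was called. The size of the change, as the median absolute log2 fold change, was 0.11 over the 36 members and 0.20 over all peaks, while the signed medians were 0.00 and -0.01. None of the members changed by as much as 2-fold in the fit. The groups did not overlap at 11 of the 36 peaks, or 30.6%, against 33.8% of all peaks.

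**Figure D1:**
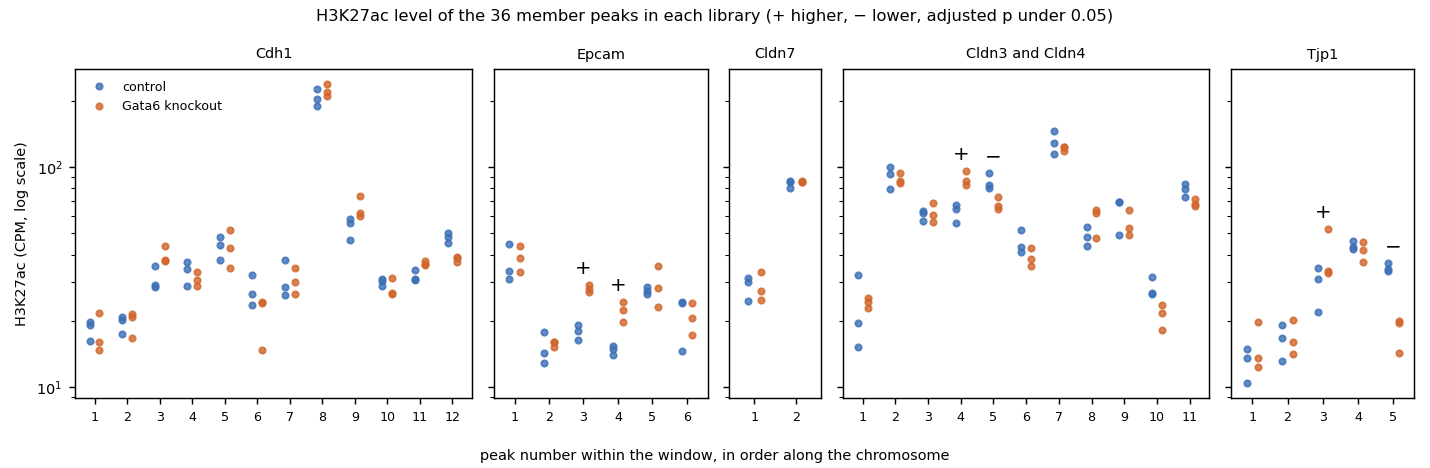
H3K27ac level in CPM on a log axis of each of the 36 peaks, in 5 panels by window, with control libraries in blue and Gata6 knockout libraries in orange; each point is 1 library. A plus or minus sign marks the 4 peaks called higher and the 2 called lower, and at most other peaks the points of the groups intermingle.

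The windows differed in how densely their peaks were acetylated. Per kb of peak, control libraries held 14.3 ± 0.496 CPM at Cldn3 and Cldn4, 12.7 ± 0.843 at Cdh1, 12.04 ± 0.367 at Cldn7, 11.1 ± 0.399 at Tjp1 and 10.1 ± 0.292 at Epcam (SD, n = 3). The control ranges of Cdh1 and Cldn7 overlapped, and those of the other neighbours in this order did not. In the knockout the order changed at its lower end, where Epcam, with 11.7 ± 1.09 CPM per kb, came before Tjp1, with 10.6 ± 1.04, but their ranges overlapped. Peaks covered 41.7% of the Cldn3 and Cldn4 window, 32.3% of the Cdh1 window, 23.4% of the Cldn7 window, 14.6% of the Epcam window and 3.87% of the Tjp1 window. The window widths were set by the choice of regions, so these shares describe the windows and not the genes.

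Cdh1, the gene of the adherens junction receptor, showed no called change at any of its 12 peaks. Its summed level was 542, 561 and 615 CPM in control replicates 1 to 3 and 609, 595 and 574 CPM in knockout replicates 1 to 3. The groups overlapped, with means of 573 ± 38.1 and 593 ± 17.6 CPM (SD, n = 3 each). The log2 fold change of the sum was 0.05 ± 0.04 (SE), with an edgeR quasi-likelihood adjusted p of 0.448. Trended offsets, which let the scaling vary with the mean count, gave 0.13 and an adjusted p of 0.0107. With them 2 of the 12 peaks, peaks 8 and 9, were called higher, and DESeq2 called peak 12 lower in place of the 0 calls by the main edgeR fit. Peak 3 was called higher without control replicate 3, and peak 9 without knockout replicate 2.

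A broad peak held the largest share of the reads in the Cdh1 window. Peak 8, from 109132953 to 109148285, was 15333 bp wide, wider than 98.4% of all peaks, and held 35.8% ± 0.926 of the window's reads in control and 37.5% ± 2.07 in knockout libraries. Its level was 189, 203 and 225 CPM in control and 219.7, 237 and 209 CPM in knockout replicates 1 to 3, and the groups overlapped. The log2 fold change was 0.11 ± 0.06 (SE), with an edgeR adjusted p of 0.224.

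At an unadjusted p under 0.05, 4 of the 12 Cdh1 peaks differed, near the share of 32.0% over all peaks. These 4, named after their values were seen, pointed both ways. Peaks 3 and 9 had log2 fold changes of 0.35 and 0.28 (edgeR adjusted p = 0.0785 and 0.0663), and peaks 6 and 12 of -0.39 and -0.32 (edgeR adjusted p = 0.1004 and 0.0747). The groups did not overlap at 4 of the 12 peaks, or 33.3%, against 33.8% of all peaks. The knockout lay above at peaks 3, 9 and 11 and below at peak 12. Over the 12 peaks the log2 fold change ran from -0.39 to 0.35, 5 above and 7 below 0, with a median of -0.02.

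The Epcam window, named for the gene of the epithelial adhesion glycoprotein, was the one whose summed level was called changed. All 6 of its peaks lay between 88001318 and 88029678, and no row of the table was found from there to the window's end at 88090000. Whether any of the 6 lies in Epcam or at its start, or the gene falls in the stretch without rows, was not determined, so the values describe the window and may hold nothing of the gene itself. The sum was 133, 129 and 136 CPM in control and 156, 168 and 139 CPM in knockout replicates 1 to 3. Each knockout library lay above each control library, knockout replicate 3 only narrowly. The means were 133 ± 3.84 and 154 ± 14.3 CPM (SD, n = 3 each), the log2 fold change 0.22 ± 0.08 (SE) and the edgeR adjusted p 0.0246. By exact permutation of the libraries, two-sided, p was 0.1, which is the lowest value reachable with 3 in each group. This call was lost without control replicate 1 (adjusted p = 0.0541), control replicate 2 (0.0888), knockout replicate 1 (0.0689) or knockout replicate 2 (0.228), and with the window widened by 50 kb on each side (0.199).

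The gain in the Epcam window lay in a pair of adjacent peaks. Peak 3, from 88011491 to 88014704, held 19.1, 17.9 and 16.5 CPM in control and 29.3, 27.9 and 26.9 CPM in knockout libraries. The groups were well apart, and the level rose 1.57-fold, a log2 fold change of 0.65 ± 0.18 (SE) with an edgeR adjusted p of 0.00310. Its share of the window's reads went from 13.5% ± 1.22 to 18.3% ± 1.41, a measure that needs no scaling between libraries. The share rests on the same counts as the call and is no separate evidence for it. In control libraries peak 3 was among the thinnest peaks of the table, with 5.55 CPM per kb, and its density over all 6 libraries was above that of only 4.64% of peaks.

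Peak 4, which starts 0.702 kb further on and runs from 88015407 to 88016803, held 15.0, 14.0 and 15.5 CPM in control and 19.8, 24.3 and 22.4 CPM in knockout libraries. The groups did not overlap, and the log2 fold change was 0.58 ± 0.22 (SE) with an edgeR adjusted p of 0.0365. The call was lost without any single control replicate, without knockout replicate 2 or 3 and with trended offsets, with adjusted p from 0.0592 to 0.136. Both peaks fall in the second lowest of 5 classes by mean level, in which 9.35% of peaks were called higher.

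The other 4 peaks of the Epcam window had log2 fold changes between -0.02 and 0.08 and overlapping groups. Among them was the highest peak of the window, peak 1, from 88001318 to 88003837, with 33.7, 31.2 and 44.7 CPM in control and 38.7, 43.9 and 33.4 CPM in knockout libraries (log2 fold change 0.07 ± 0.14, edgeR adjusted p = 0.800). Of the 33 peaks within 1 Mb outside the window, 2 were called higher and 10 lower, and their median log2 fold change was -0.21. Over all peaks 11.6% were called higher and 10.2% lower. The medians within 1 Mb outside the other windows were 0.10 at Cdh1, 0.005 at Cldn7, -0.23 at Cldn3 and Cldn4 and -0.04 at Tjp1.

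**Figure D2:**
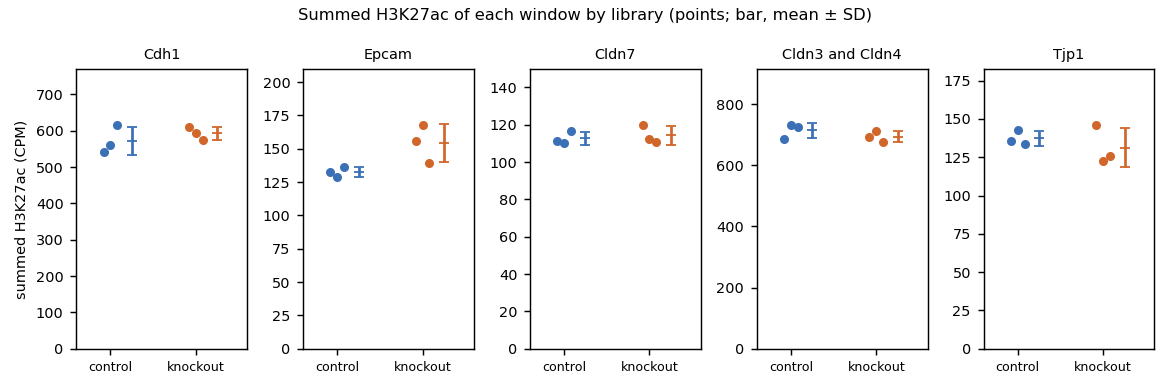
Summed H3K27ac of all peaks of each window in CPM, from 0, by library; points are libraries and the bars beside them the mean ± SD of 3. At Epcam the 3 knockout libraries lie above the 3 control libraries, and in the other 4 windows the groups overlap.

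Cldn7, whose claudin binds EpCAM, had no peak called changed. Its 2 peaks summed to 111, 110.0 and 117 CPM in control and 119.8, 112 and 111 CPM in knockout replicates 1 to 3. The groups overlapped, and the log2 fold change of the sum was 0.02 ± 0.09 (SE; edgeR adjusted p = 0.914). The main peak, from 69777471 to 69784578, held 80.2, 85.5 and 86.5 CPM in control and 86.4, 85.3 and 85.6 CPM in knockout libraries. It held 74.6% ± 2.91 of the window's reads in control and 75.1% ± 2.72 in the knockout. Neither peak reached an unadjusted p of 0.05 by edgeR, and DESeq2 called neither of them.

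Cldn3 and Cldn4 lie next to each other on chromosome 5. On this chromosome as a whole H3K27ac reads were fewer in the knockout, with a median log2 fold change of -0.26 over its 1863 peaks. The counts hold no measure of the DNA itself, and the cause of this shift was not tested. The 11 peaks of their window summed to 686, 731 and 727 CPM in control and 692, 714 and 676 CPM in knockout replicates 1 to 3. The groups overlapped, with means of 715 ± 24.8 and 694 ± 18.9 CPM (SD, n = 3 each) and a log2 fold change of -0.04 ± 0.04 (SE; edgeR adjusted p = 0.475). Against the shift of the chromosome, the same sum was 1.16-fold higher, a log2 difference of 0.22 ± 0.04 (SE) with an edgeR adjusted p of 4.32e-07. That test sets the sum against a fixed median and not against the spread of single peaks: the log2 fold change of the sum lay above that of 75.9% of chromosome 5 peaks. Relative to the 222 other chromosome 5 peaks within 5 Mb, whose median was -0.30, the difference was 0.26.

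**Figure D3:**
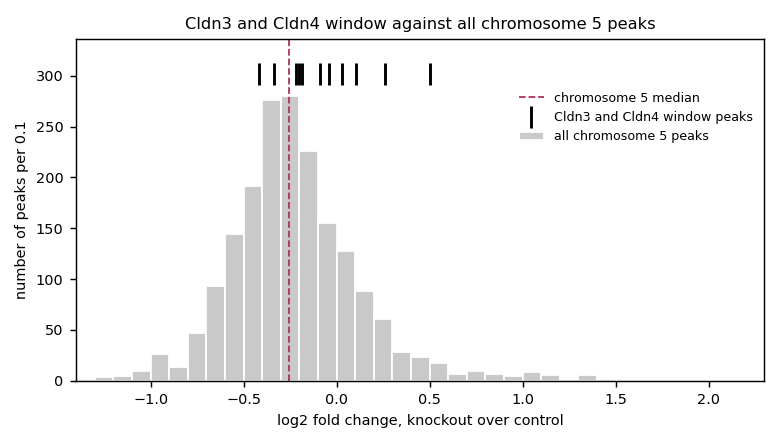
Histogram of the log2 fold change, knockout over control, of all 1863 chromosome 5 peaks in bins of 0.1, with the 11 peaks of the Cldn3 and Cldn4 window as black ticks and the chromosome median of -0.26 as a dashed line. Of the ticks, 9 lie above the median and 2 below it.

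Of the 11 peaks, 1 was called higher and 1 lower, while on the whole of chromosome 5 the shares were 4.46% higher and 33.8% lower, or 38.3% in either direction. With the chromosome shift removed, 2 were higher and 0 lower by edgeR, against 11.4% higher and 8.7% lower on the chromosome, or 20.1% in either direction. DESeq2, with the shift removed in the same way, gave 3 higher and 0 lower, and edgeR gave 4 higher without control replicate 2 or against the median within 5 Mb. The counts are small, and the 11 peaks share 1 locus and the same 6 libraries.

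The called gain and the called loss were neighbours. Peak 4, from 135432216 to 135439408, held 55.5, 67.4 and 64.2 CPM in control and 96.1, 86.3 and 82.4 CPM in knockout libraries. The groups were apart, and the level rose 1.42-fold, with a log2 fold change of 0.50 ± 0.10 (SE) and an edgeR adjusted p of 2.93e-05. Against the chromosome shift its log2 difference was 0.76 ± 0.10 (adjusted p = 3.13e-11). It kept its call in each of the 16 other fits to peaks that were run, leave-one-out fits included, except against a 1.5-fold threshold. The fit without the low-count filter is among them and repeats the main fit, since all peaks passed the filter.

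Peak 5, from 135441471 to 135445708 and 2.06 kb further on, held 94.1, 83.0 and 80.5 CPM in control and 66.5, 73.3 and 64.5 CPM in knockout libraries. The groups did not overlap, and the level fell, with a log2 fold change of -0.33 ± 0.10 (SE) and an edgeR adjusted p of 0.00836. The call was lost without control replicate 1 (adjusted p = 0.116) or knockout replicate 3 (0.0525). Against the chromosome shift the log2 difference was -0.08 ± 0.10 (adjusted p = 0.683), so this fall was not distinguishable from the shift of chromosome 5. Reads in peak 4 per read in peak 5 numbered 0.590, 0.812 and 0.797 in control and 1.45, 1.18 and 1.28 in knockout libraries. Thus peak 5 held more reads in every control and peak 4 in every knockout library. The pair was picked by its calls, so the ratio is no separate evidence for them.

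The strongest peak of the window, peak 7 from 135458946 to 135466493, held 115, 146 and 128 CPM in control and 118, 124 and 123 CPM in knockout libraries. The groups overlapped, and it stood at a log2 fold change of -0.09 ± 0.08 (SE; edgeR adjusted p = 0.477), or 0.17 ± 0.08 against the chromosome shift (adjusted p = 0.141). Peak 8, from 135476060 to 135478618, is named after its values were seen, as the other peak called higher against the shift, with a log2 difference of 0.52 ± 0.12 (adjusted p = 0.000375). Its levels were 48.0, 53.4 and 43.8 CPM in control and 64.1, 62.0 and 47.5 CPM in knockout libraries. Knockout replicate 3 lay within the control range, and against no change the peak did not pass (log2 fold change 0.26, adjusted p = 0.121). The remaining 7 peaks had log2 fold changes between -0.42 and 0.10 against no change.

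**Figure D4:**
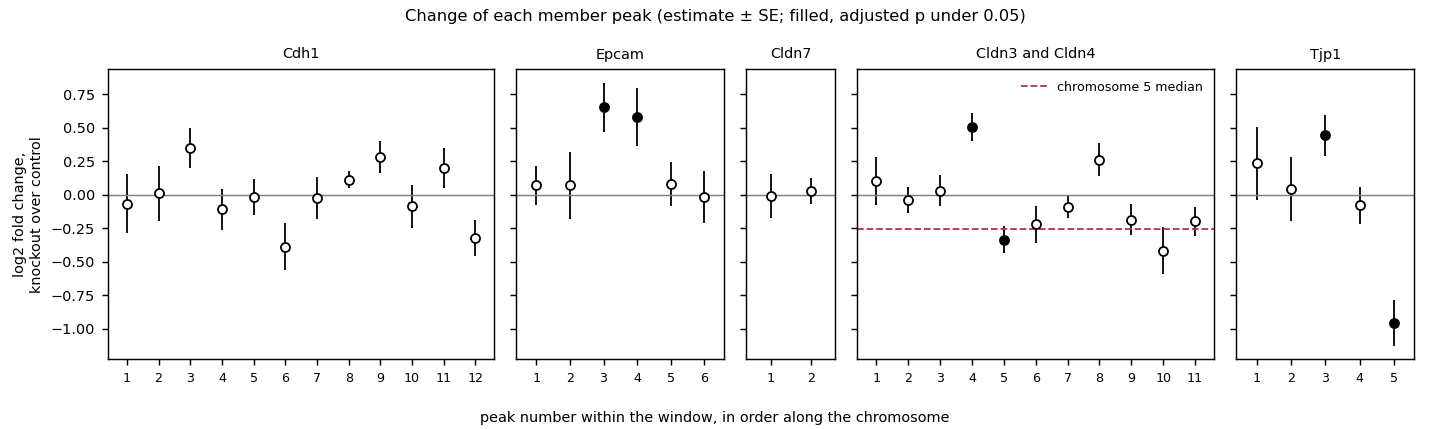
Log2 fold change of H3K27ac, knockout over control, of each of the 36 peaks in 5 panels by window, with the SE as bars and filled points where the adjusted p was under 0.05. The dashed line in the Cldn3 and Cldn4 panel is the chromosome 5 median of -0.26; the lowest point, at -0.96, is peak 5 at Tjp1.

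Tjp1, the gene of the tight junction scaffold, held the largest loss among the 36 peaks beside a gain. Its 5 peaks summed to 136, 143 and 133 CPM in control and 146, 122 and 126 CPM in knockout replicates 1 to 3. The groups overlapped, and the log2 fold change of the sum was -0.07 ± 0.08 (SE; edgeR adjusted p = 0.628).

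Tjp1 peak 5, from 72626651 to 72630022, held 34.3, 36.6 and 33.8 CPM in control and 14.3, 20.0 and 19.6 CPM in knockout libraries. The groups were far apart, and the level fell 1.94-fold, from 34.9 ± 1.51 to 17.9 ± 3.17 CPM (SD, n = 3 each). The log2 fold change was -0.96 ± 0.17 (SE), with an edgeR adjusted p of 6.67e-07 that stayed under 0.05 in each of the 16 other fits to peaks without a fold threshold. Among these, the fit without the low-count filter repeats the main fit, since all peaks passed the filter. The share of the window's reads in peak 5, which rests on the same counts as its call, went from 25.4% ± 0.202 to 13.9% ± 3.58. In the class of peak 5 by mean level, the middle of 5, 9.44% of peaks were called lower.

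Peak 4, the strongest Tjp1 peak and 12.4 kb before peak 5, ran from 72611514 to 72614241. It held 43.1, 42.5 and 46.1 CPM in control and 45.6, 42.1 and 37.2 CPM in knockout libraries, with overlapping groups and a log2 fold change of -0.08 ± 0.14 (SE; edgeR adjusted p = 0.753). Reads in peak 4 per read in peak 5 numbered 1.26, 1.16 and 1.36 in control and 3.20, 2.11 and 1.90 in knockout libraries. These ratios did not overlap, and they need no scaling between libraries. They rest on the same counts as the call of peak 5 and are no separate evidence for it. Ratios of some neighbouring peaks at Cdh1, where the main fit called no peak, did not overlap either. They were those of peaks 2 and 3, 3 and 4, 9 and 10, 10 and 11, and 11 and 12.

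Peak 3 of Tjp1, from 72537556 to 72541114, was called higher with a log2 fold change of 0.44 ± 0.15 (SE) and an edgeR adjusted p of 0.0194. Its groups overlapped, with 34.8, 31.2 and 21.9 CPM in control and 52.2, 33.7 and 32.9 CPM in knockout libraries. Without control replicate 3 the log2 fold change was 0.26 (adjusted p = 0.303), and without knockout replicate 1 it was 0.19 (0.506). DESeq2 gave 0.44 but did not call it either (adjusted p = 0.308). The first 2 peaks of the window, with means over the 6 libraries of 14.1 and 16.6 CPM, had log2 fold changes of 0.23 ± 0.27 and 0.04 ± 0.24 and overlapping groups.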

How the data were processed

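H3K27ac CUT&RUN was measured in 3 control and 3 Gata6 knockout organoid libraries. The deposited table holds raw counts, not normalized, for 1 set of peaks in mm9. The submitters' processing notes name Bowtie, SAMtools, Picard, bedtools and SEACR. Not given in the sources used here are their versions, how peaks were merged and how reads were counted. Between 82.8% and 88.9% of counts per library were even, as when both mates of a pair are counted, which would make the true number of fragments smaller.

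All 22731 peaks were fitted in edgeR 4.0.16 (R 4.3.3) with TMM factors, a quasi-likelihood test of group and Benjamini-Hochberg adjustment over the table, with calls at 0.05. The SE was derived from the F statistic. Window sums replaced their peaks in the same table. For chromosome 5, its median log2 fold change was added as an offset to the knockout libraries. Exact two-sided permutation tests used SciPy 1.17.1, with 0.1 as the smallest p. The fit was tested on simulated counts for the same comparison (22731 peaks): it found 48 of 100 peaks changed 1.5-fold and 99 of 100 changed 2-fold, and called 5 of the 22531 left unchanged. The simulation gave all peaks the same dispersion (spread beyond counting) and changed few of them, whereas 21.8% of peaks were called in the data. These rates therefore need not hold for the data. The rule for named peaks was the strongest of each window and each called one; others named are said to be chosen after their values were seen. The members, windows and lists were chosen with earlier results of these data known. A planned list of other junction genes was not applied, since no mm9 annotation was used here. Alternatives were DESeq2 1.42.0, other scalings, filters, thresholds and windows, halved counts, a block on replicate number, and fits that omit 1 library each.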

Additional observations from a re-analysis of the deposited data

How the results depend on the processing

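Of the 36 peaks, 4 were called higher and 2 lower. An adjusted p under 0.01 was met by 2 of the higher peaks. With glmTreat, which asks for changes beyond 1.5-fold, 0 peaks passed as higher and 0 as lower. Omitting 1 library at a time, the higher peaks numbered 3 to 4 and the lower ones 1 to 2, but not always the same peaks. These fits shared 4 or 5 of the 6 main calls. Cdh1 peak 3 was added as higher without control replicate 3 (edgeR adjusted p = 0.0395) and Cdh1 peak 9 without knockout replicate 2 (0.0494). Peak 8 of Cldn3 and Cldn4 was added as higher without knockout replicate 3 (0.0266). Of the 6 calls, DESeq2 shared 5 and trended offsets 5, while each other scaling, each filter, and halved counts shared all 6. Every peak lies wholly inside its window, so the setting of peaks wholly inside repeats the main fit. The fit without a low-count filter repeats it too, since all 22731 peaks passed the filter. On chromosome 5, peaks called higher against the shift numbered 4 with the median of peaks within 5 Mb, and 2 to 4 with a library left out, where the 4 came without control replicate 2. The summed Cdh1 window was called with trended offsets (log2 fold change 0.13). The summed Epcam window was not called when widened by 50 kb (0.12), and ranged from 0.15 to 0.29 with a library left out. The summed Cldn7 window, near 0, was -2.46e-05 with scaling from peaks off chromosome 5, -0.00391 when widened, and -0.0161 to 0.0449 with a library left out. The summed Cldn3 and Cldn4 window was 0.0442 with trended offsets, and against the chromosome shift it kept its direction and call in all 20 alternatives, from 0.18 to 0.29. With a library left out, the main Cldn7 peak ranged from -0.000652 to 0.0506 and Epcam peak 1 from -0.0306 to 0.248. The cause of these changes was not tested. For the share of each window in its strongest peak, the difference between groups moved by no more than the larger of the groups' SDs, but its sign turned in some fits with a library left out. At Epcam it was -2.50 percentage points, -5.01 with the widened window and 0.159 without control replicate 3. Deviations of same-numbered libraries correlated at 0.00595 to 0.0679, so the numbers were not taken as pairs; a replicate block on them called 4 peaks higher and 2 lower, and each summed window stayed on its side of the threshold. The smallest change that can be detected in these data was not tested. Calls were made below 1.5-fold, as at peak 5 of Cldn3 and Cldn4, which fell 1.26-fold (edgeR adjusted p = 0.00836). A peak that was not called may still have changed.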
